A study of Mus musculus with 16 samples.

Results

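Adgre1 and Vcam1, 2 of the 11713 genes counted in mouse spleen, encode the antigens that the F4/80 and CD106 antibodies bind. They were chosen as the transcripts of 2 of the 30 antibodies of the panel, and are described here in droplets positive for both antibodies, for 1 or for neither. The material was spleen from female BALB/cJ mice aged 9 months, read by CITE-seq, in which 1 droplet yields both the RNA of a cell and counts of antibodies carrying DNA tags. The labels give RNA and antibody samples for 2 sources, Main1 and Main2, with 4 samples in each of the 4 groups. All animals carried the same strain, sex and age labels, no treatment or genotype was labelled, and no group served as a control. The deposited tables do not separate the 4 samples of a group, and each source therefore counted as 1 library. Whether different animals gave Main1 and Main2 is not labelled. The p-values here rest only on how far gate differences varied between these 2 libraries, with a spread moderated over genes.

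F4/80, the product of Adgre1, is an adhesion G protein-coupled receptor of the cell surface and the usual marker of tissue macrophages in the mouse. VCAM-1, also named CD106 and encoded by Vcam1, is a cell adhesion molecule of the immunoglobulin superfamily that binds integrins such as VLA-4 on leukocytes. It is best known from activated endothelium. In mouse spleen, the macrophages of the red pulp, which clear old red cells and recycle their iron, are known to carry both proteins, while monocytes carry F4/80. In GRCm38, Adgre1 (ENSMUSG00000004730) lies on chromosome 17 from 57358691 to 57483527 on the + strand, and Vcam1 (ENSMUSG00000027962) on chromosome 3 from 116109949 to 116129688 on the - strand. Both are annotated as protein-coding, Adgre1 with 5 transcripts and Vcam1 with 4. Reads were counted per gene, so transcripts and exons were not told apart.

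Main1 held 3179 droplets with a median of 1789 RNA molecules (unique molecular identifiers, UMIs) and Main2 held 3918 with a median of 1778. Only 14 barcodes occurred in both libraries. Over all droplets 155 Adgre1 UMIs and 586 Vcam1 UMIs had been counted, and both genes passed the filter of 20 UMIs. Levels are UMIs per 1000000 UMIs (CPM) of summed droplets, with exact Poisson 95% intervals, and shares of droplets carry exact binomial 95% intervals. Both kinds of interval cover counting error only. A droplet was called positive from a mixture fitted to each antibody, which put the lowest positive count at 33 for F4/80 and at 22 for CD106. The highest negative counts were therefore 32 and 21.

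By these limits 318 droplets were F4/80+ CD106+, 356 were F4/80+ CD106-, 123 were F4/80- CD106+ and 6300 carried neither antibody. The 2 libraries gave nearly equal shares. F4/80+ droplets made up 9.53% of Main1 and 9.47% of Main2, and CD106+ droplets made up 6.48% of Main1 and 6.0% of Main2.

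**Figure D1:**
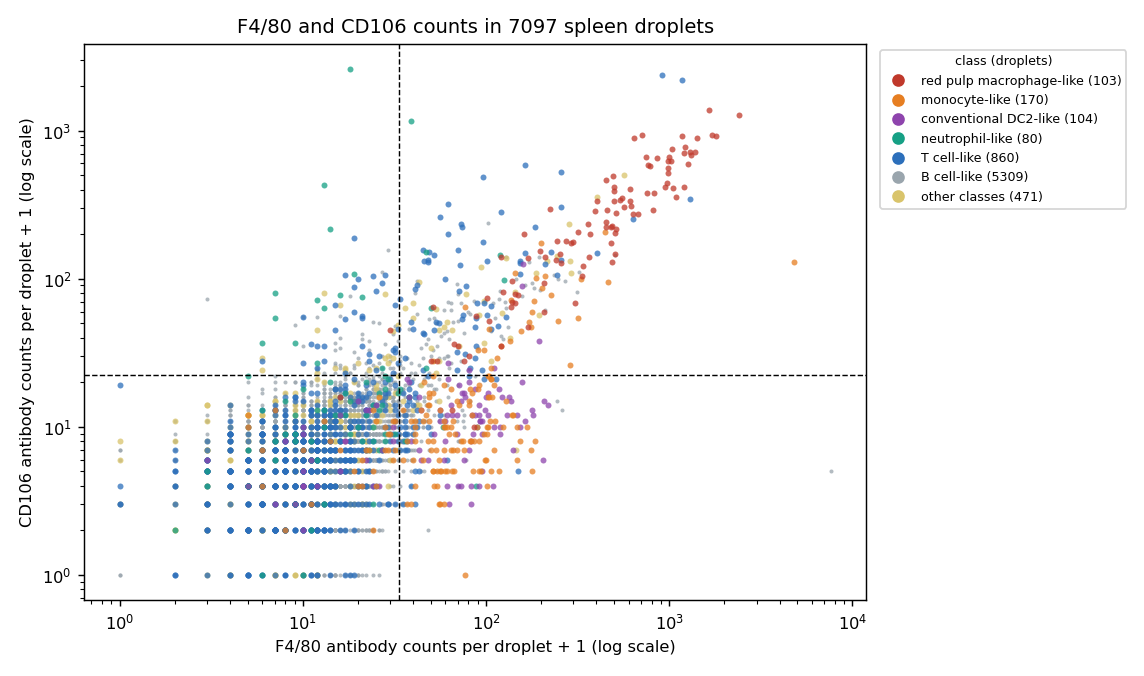
Antibody counts plus 1 of F4/80 (x axis) and CD106 (y axis) in every droplet, both on log scales, coloured by the class of the droplet's RNA. Dashed lines mark the lowest positive counts of 33 and 22. The 103 red pulp macrophage-like droplets lie mostly at the upper right, while monocyte-like and conventional DC2-like droplets extend to the right below the CD106 line.

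Adgre1 RNA followed F4/80, whether or not CD106 was also present. In F4/80+ CD106+ droplets it stood at 38.8 CPM in Main1 and 50.8 CPM in Main2. In F4/80+ CD106- droplets it stood at 50.6 CPM in Main1 and 29.5 CPM in Main2, so neither gate was the higher one in both libraries. In droplets with neither antibody it stood at 2.52 CPM in Main1 and 1.22 CPM in Main2, below both F4/80+ gates in each library. F4/80- CD106+ droplets had 0 Adgre1 UMIs among 517865 UMIs in all, which allows a level of up to 5.79 CPM at 3 UMIs over the gate.

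Vcam1 RNA was high in the F4/80+ CD106+ gate, at 458.0 CPM in Main1 and 236.4 CPM in Main2. F4/80+ CD106- droplets held 1.53 CPM in Main1 and 2.36 CPM in Main2. F4/80- CD106+ droplets held 8.57 CPM in Main1 and 24.6 CPM in Main2, from 9 UMIs in 4 droplets. Droplets with neither antibody held 3.15 CPM in Main1 and 2.81 CPM in Main2. In both libraries the F4/80+ CD106+ gate stood far above each other gate. The F4/80+ CD106- gate held 3 UMIs, with intervals of 0.0388 to 8.54 CPM in Main1 and 0.286 to 8.54 CPM in Main2. These contain the levels of droplets with neither antibody, so no order is read between the 2 gates.

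**Figure D2:**
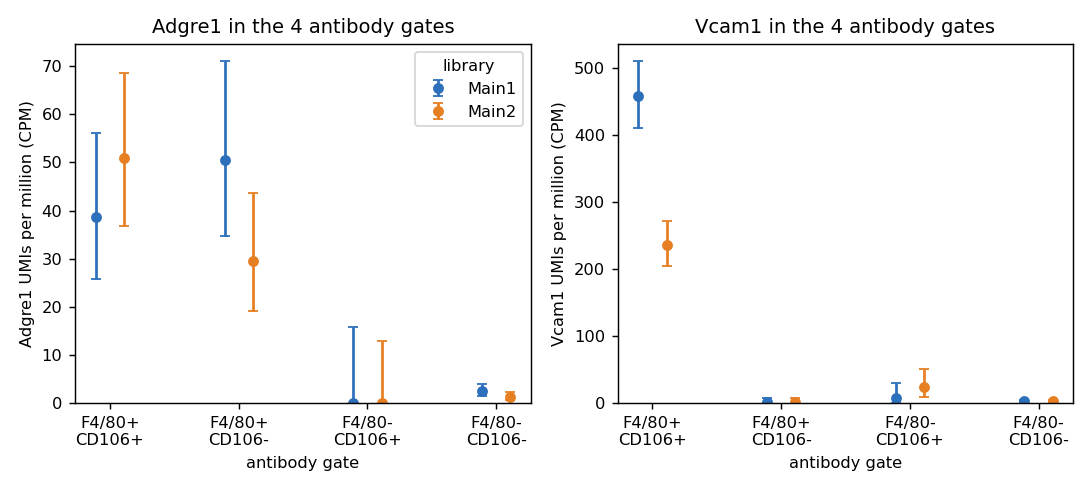
CPM of Adgre1 (left) and Vcam1 (right) in the 4 antibody gates, 1 point per library with its exact Poisson 95% interval. Adgre1 was high in both F4/80+ gates, between 29.5 and 50.8 CPM, and Vcam1 was high in the F4/80+ CD106+ gate, at 458.0 and 236.4 CPM.

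Gates were compared with edgeR's quasi-likelihood test on UMIs summed per gate and library, with the library as a block and Benjamini-Hochberg adjustment over 11383 genes. F4/80+ CD106+ droplets against droplets with neither antibody gave 2241 genes past an adjusted p of 0.05, 19.7% of those tested, and both members were among them. Adgre1 was higher by 4.60 on the log2 scale (SE 0.35, edgeR adjusted p = 4.92e-22) and Vcam1 by 6.77 (SE 0.17, edgeR adjusted p = 6.24e-63). Without the library as a replicate block, 1445 genes passed, again with both members. Gate sums mix cell classes, so more cells of a class and more RNA per cell cannot be told apart in them.

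In F4/80+ CD106- droplets against droplets with neither antibody, 1757 genes passed (15.4%). Adgre1 was higher by 4.34 (SE 0.37, edgeR adjusted p = 4.92e-19). Vcam1 had a log2 difference of -0.61 (95% interval -2.15 to 0.94, edgeR adjusted p = 0.697), which rested on 3 UMIs in the F4/80+ CD106- gate. With a stricter gate, set at the 99th percentile of T cell-like droplets, the F4/80+ CD106- gate held 202 Vcam1 UMIs and the difference was 7.46 (edgeR adjusted p = 9.76e-54). That percentile was taken per library, and the lowest CD106+ count was 462 in Main1 and 223 in Main2. Its F4/80+ CD106- droplets had a median of 146.5 CD106 counts, and 176 of the 202 UMIs were from Main1.

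In F4/80- CD106+ droplets against droplets with neither antibody, 623 genes passed (5.47%). Vcam1 was higher by 2.60 (SE 0.63, edgeR adjusted p = 0.00258). That call rested on 9 UMIs, of which 1 droplet held 66.7%. Its adjusted p was 0.103 without the replicate block and 0.849 when droplets were limited to those under 4000 UMIs. Adgre1 did not pass (edgeR adjusted p = 0.638), and no fold is given because the F4/80- CD106+ gate held 0 UMIs.

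In the direct comparison of the 2 F4/80+ gates, Vcam1 passed and Adgre1 did not. With CD106 against without it, 529 genes passed (4.65%). Vcam1 was higher by 7.38 (SE 0.32, edgeR adjusted p = 6.50e-41), with 531 UMIs in F4/80+ CD106+ droplets and 3 UMIs in F4/80+ CD106- droplets. With the gate at the 99th percentile of T cell-like droplets it was 1.07 and did not pass (edgeR adjusted p = 0.522). The F4/80+ CD106- droplets of that gate had a median of 146.5 CD106 counts. Adgre1 differed by 0.26 on the log2 scale (95% interval -0.34 to 0.87, edgeR adjusted p = 0.801). Each library alone gave -0.36 in Main1 and 0.84 in Main2.

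F4/80+ CD106+ droplets against F4/80- CD106+ droplets gave 400 genes (3.51%). Adgre1 was at least 7.81-fold higher (edgeR adjusted p = 8.75e-06), computed against 3 UMIs over the F4/80- CD106+ gate, and Vcam1 was higher by 4.17 (SE 0.31, edgeR adjusted p = 8.30e-23). F4/80+ CD106- droplets against F4/80- CD106+ droplets gave 584 genes (5.13%). There Adgre1 was at least 6.68-fold higher (edgeR adjusted p = 4.63e-05) and Vcam1 was lower by 3.21 (a log2 difference of -3.21, SE 0.85, edgeR adjusted p = 0.00784). That Vcam1 call was lost without the replicate block (edgeR adjusted p = 0.149), with the gate within droplets (0.180), under 4000 UMIs (0.717) and in DESeq2 (0.0542). With the gate at the 99th percentile of T cell-like droplets it was reversed and passed, at 3.04 (edgeR adjusted p = 4.35e-06). There the F4/80+ CD106- droplets had a median of 146.5 CD106 counts, and the F4/80- CD106+ gate held 8 droplets. The comparisons share gates, so they are not independent of each other. A test added after the data had been seen compared the Vcam1 difference between F4/80+ and F4/80- droplets in CD106+ and CD106- droplets. It was larger by 4.78 in CD106+ droplets (SE 0.74, edgeR adjusted p = 5.83e-07), and 245 genes (2.15%) passed that test. With the percentile gate the order was reversed, at 4.11 in CD106+ and 7.46 in CD106- droplets, and the interaction was not tested.

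Droplets differ in depth, and deeper droplets show a UMI more often. An Adgre1 UMI was found in 13.8% of F4/80+ CD106+ droplets (10.2 to 18.1), 14.3% of F4/80+ CD106- droplets, 0 of 123 F4/80- CD106+ droplets and 0.413% of droplets with neither antibody. Thinned to 1000 UMIs per droplet, which left out no droplet, the shares were 7.23%, 5.62%, 0% and 0.190% in the same order. A Vcam1 UMI was found in 26.1% of F4/80+ CD106+ droplets (21.4 to 31.3), 0.843% of F4/80+ CD106- droplets, 3.25% of F4/80- CD106+ droplets and 0.667% of droplets with neither. After thinning these shares were 21.4%, 0%, 0.813% and 0.317%. The thinned Vcam1 share in F4/80- CD106+ droplets was 1 droplet, and no difference is read from it.

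Read against its own antibody alone, Adgre1 was found in 14.1% of 674 F4/80+ droplets and in 0.405% of 6423 F4/80- droplets. Median depths there were 2977.5 UMIs with F4/80 and 1729 without. Vcam1 was found in 19.7% of 441 CD106+ droplets and in 0.676% of 6656 CD106- droplets, with median depths of 2774 and 1752 UMIs. Most antibody-positive droplets thus had no UMI of the matching gene.

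Both genes were highest at the highest antibody counts. Adgre1 stood at 1.32 CPM in droplets with 0 to 9 F4/80 counts, 1.67 at 10 to 19 and 2.88 at 20 to 32. Past the positive limit it stood at 17.1 CPM at 33 to 99 counts, 48.1 at 100 to 299 and 244.2 at 300 or more. Vcam1 stood at 2.32 CPM in droplets with 0 to 9 CD106 counts, 6.12 at 10 to 15 and 0 at 16 to 21. Past the limit it stood at 18.6 CPM at 22 to 99 counts, 241.5 at 100 to 299 and 1774 at 300 or more. Over all droplets both genes were higher just above the limit than just below it, and the highest levels were in the 81 droplets with 300 or more F4/80 counts and the 56 with 300 or more CD106 counts. These bins pool all classes. Within monocyte-like droplets Adgre1 stood at 89.8 CPM at 20 to 32 F4/80 counts (5 UMIs), 56.6 CPM at 33 to 99 and 81.3 CPM at 100 to 299. The 10 red pulp macrophage-like droplets at 33 to 99 counts held 0 Adgre1 UMIs, with an interval that reaches 182.5 CPM. In that class Adgre1 stood at 90.9 CPM at 100 to 299 F4/80 counts and 336.8 CPM at 300 or more. Vcam1 stood there at 332.7 CPM at 22 to 99 CD106 counts, 1807 at 100 to 299 and 4212 at 300 or more.

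**Figure D3:**
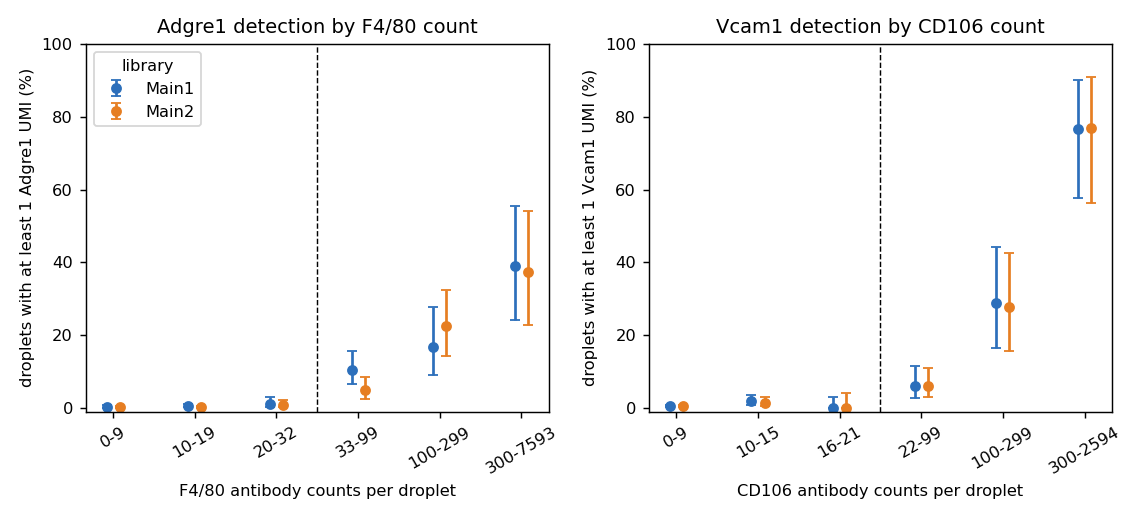
Share of droplets with at least 1 Adgre1 UMI by F4/80 count (left) and with at least 1 Vcam1 UMI by CD106 count (right), 1 point per library with its exact binomial 95% interval. The dashed line marks the positive limit. In the highest bin 39.0% of Main1 and 37.5% of Main2 droplets had Adgre1, and 76.7% and 76.9% had Vcam1.

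Read from the RNA side, the antibodies were high where the transcript was seen more than once. The 18 droplets with at least 2 Adgre1 UMIs were all F4/80+, with a median of 558.5 F4/80 counts. Of the 103 droplets with 1 Adgre1 UMI, 74.8% were F4/80+, and of the 6976 without one, 8.30% were. Of the 59 droplets with at least 2 Vcam1 UMIs, 98.3% were CD106+, with a median of 380 CD106 counts. Among the 73 droplets with 1 Vcam1 UMI the share was 39.7%, and among the 6965 without one it was 5.08%.

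Both transcripts together were found in 30 droplets, and all 30 were F4/80+ CD106+. Of these 29 were red pulp macrophage-like and 1 was monocyte-like. Adgre1 without Vcam1 was found in 91 droplets, of which 51 were F4/80+ CD106- and 14 carried both antibodies. Vcam1 without Adgre1 was found in 102 droplets, of which 53 carried both antibodies and 42 carried neither.

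Cell classes were built from RNA clusters computed without Adgre1 and Vcam1, so the levels of both genes played no part in them. A cluster was called X-like from marker genes of that type, which hold neither member. The red pulp macrophage-like cluster of 103 droplets had 14 of 14 markers high and was led by Vcam1 itself, Hmox1, C1qa, C1qb, C1qc, Slc40a1 and Fcna. The cluster of 104 conventional DC2-like droplets had 6 of 7 markers high, but none of them was among its 10 leading genes, which included H2-M2, Fscn1 and Mmp12. Of the 9 B cell-like clusters, 2 were led by a marker of another class and none of their own. Gates are therefore not compared within B cell-like droplets alone, which enter gate comparisons only together with other classes.

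Adgre1 was found in 3 classes above all. Red pulp macrophage-like droplets had 259.8 CPM in Main1 and 212.2 CPM in Main2. Conventional DC2-like droplets had 120.6 CPM in Main1 and 110.1 CPM in Main2, and monocyte-like droplets had 77.9 CPM in Main1 and 81.8 CPM in Main2. Over both libraries the intervals were 173.9 to 310.7 CPM, 77.5 to 163.9 CPM and 59.5 to 105.7 CPM, so the lower 2 classes overlapped each other. Within Main1 alone the red pulp macrophage-like interval (169.7 to 380.7) also overlapped the conventional DC2-like one (66.0 to 202.4). Erythroid-like and B cell-like droplets had 2.44 and 2.06 CPM. T cell-like, NK-like, plasma cell-like, neutrophil-like, plasmacytoid DC-like and conventional DC1-like droplets had 0 UMIs, and for the 860 T cell-like droplets the binomial interval of the share with a UMI reaches 0.428%. Basophil or mast-like droplets numbered 17 and held 1 Adgre1 UMI.

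The 155 Adgre1 UMIs came to 32.3% from monocyte-like, 31.6% from red pulp macrophage-like, 19.4% from conventional DC2-like and 14.2% from the 5309 B cell-like droplets. A B cell-like droplet held at most 1 Adgre1 UMI, and the share of them with a UMI was 0.414% at a median depth of 1655 UMIs. Its interval, 0.260 to 0.627%, overlaps the 0 to 0.428% of T cell-like droplets, while the CPM intervals, 1.29 to 3.12 in B cell-like and 0 to 1.03 in T cell-like droplets, do not overlap. The share compares with 31.1% of red pulp macrophage-like droplets at a median depth of 1792 UMIs. In 1 monocyte-like droplet 10 Adgre1 UMIs had been counted.

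Vcam1 was concentrated in 1 class. Red pulp macrophage-like droplets had 3278 CPM in Main1 and 1780 CPM in Main2, and their 521 UMIs were 88.9% of all Vcam1 UMIs, 520 of them in F4/80+ CD106+ droplets. The intervals of the 2 libraries, 2933 to 3653 and 1538 to 2050 CPM, did not overlap, so Main1 was the higher library beyond counting error. A Vcam1 UMI was present in 71.8% of these 103 droplets, and up to 37 UMIs in 1 of them. Neutrophil-like droplets came next at 44.8 CPM (23.2 to 78.3), from 12 UMIs in 6 droplets, with 19.3 CPM in Main1 and 60.9 CPM in Main2. Monocyte-like droplets had 4.81 CPM and conventional DC2-like droplets 11.5 CPM, from 3 UMIs each. B cell-like droplets had 3.28 CPM and T cell-like droplets 1.67 CPM, with a UMI in 0.640% and 0.698% of droplets. The part of background RNA in these was not tested. The intervals of the other classes overlapped each other.

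**Figure D4:**
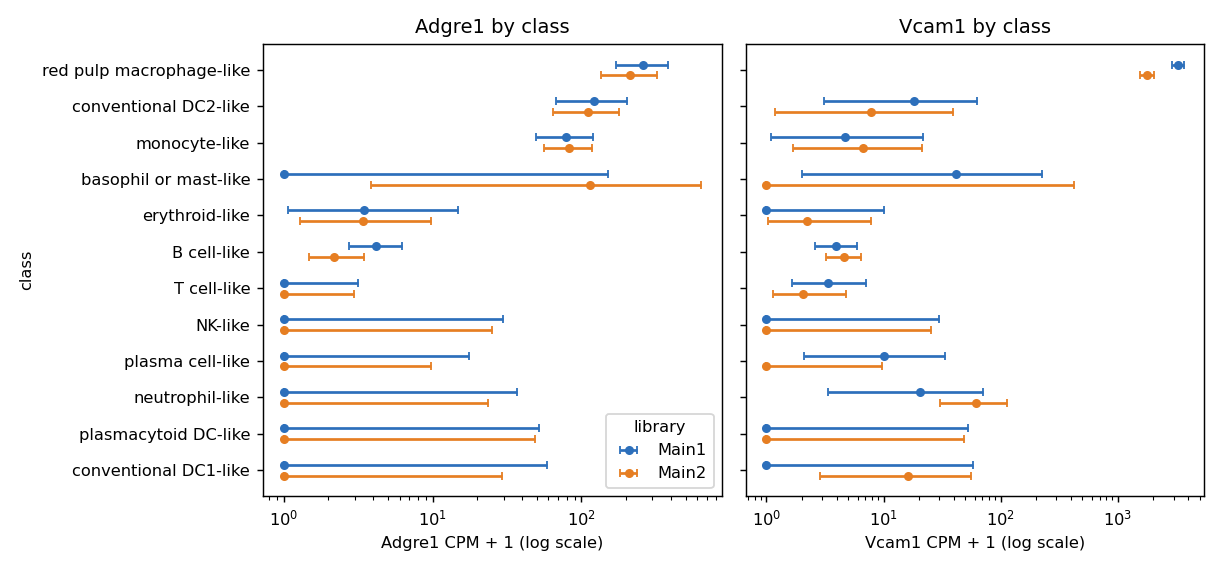
CPM plus 1 of Adgre1 (left) and Vcam1 (right) in each class, on log scales, 1 point per library with its exact Poisson 95% interval. Points at 1 mark 0 UMIs. Adgre1 was high in 3 classes, and Vcam1 reached 3278 and 1780 CPM in red pulp macrophage-like droplets.

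The antibodies were highest in the same classes, with exceptions. Red pulp macrophage-like droplets were F4/80+ in 98.1% and CD106+ in 97.1%, with medians of 477 and 234 counts. Monocyte-like droplets were F4/80+ in 81.2%, with a median of 63.5 counts, and CD106+ in 16.5%. Conventional DC2-like droplets were F4/80+ in 74.0%, with a median of 69.5 counts, and CD106+ in 5.77%. T cell-like droplets were F4/80+ in 12.6% and CD106+ in 11.9%, at medians of 11 and 6 counts, and B cell-like droplets in 3.75% and 2.52%. Some classes with few or no UMIs of the genes held many positive droplets. Conventional DC1-like droplets, with 0 Adgre1 UMIs, were F4/80+ in 31.4% and CD106+ in 28.6%. Basophil or mast-like droplets were F4/80+ in 41.2% and CD106+ in 47.1%. Neutrophil-like and plasma cell-like droplets were CD106+ in 25% and 20.7%, more often than monocyte-like droplets.

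From the side of the gates, 99 of the 318 F4/80+ CD106+ droplets were red pulp macrophage-like (31.1%), 80 were B cell-like, 67 T cell-like and 28 monocyte-like. Clustering on 4000 variable genes gave 63 red pulp macrophage-like droplets in place of 103, which were 19.5% of this gate, and 88 conventional DC1-like droplets in place of 35. By RNA the mixture looked different, since the T cell-like droplets held 48.6% of the UMIs of that gate. The CPM of both members in the F4/80+ CD106+ gate were therefore set against many UMIs of lymphocyte-like droplets. Of the 356 F4/80+ CD106- droplets, 110 were monocyte-like, 71 conventional DC2-like, 119 B cell-like and 41 T cell-like. Of the 123 F4/80- CD106+ droplets, 54 were B cell-like, 35 T cell-like and 14 neutrophil-like.

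**Figure D5:**
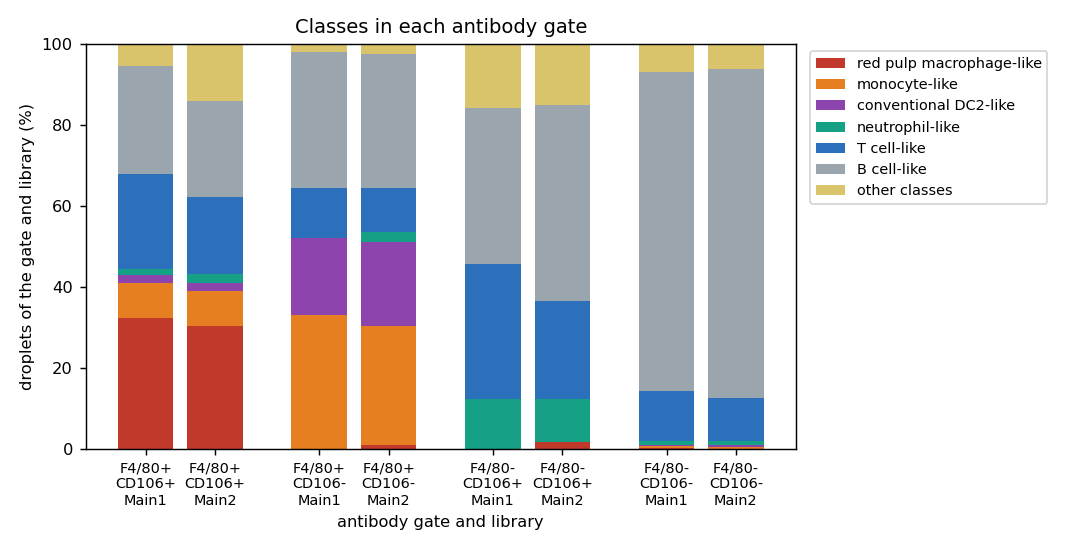
Share of each class (stacked bars, in percent of droplets) in the 4 antibody gates of each library. Red pulp macrophage-like droplets were 31.1% of the F4/80+ CD106+ gate over both libraries, with lymphocyte-like droplets in every gate.

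The T cell-like droplets with both antibodies had almost none of either transcript. The 67 of them held 0 Adgre1 UMIs and 1 Vcam1 UMI among 763115 UMIs, which for Adgre1 allows a level of up to 3.93 CPM at 3 UMIs. Their depth stood apart, with a median of 11401 UMIs, against 2304 in the 717 T cell-like droplets with neither antibody. Their total antibody count had a median of 36893, against 3374. F4/80 made up a median of 0.237% of the antibody counts of a droplet in the first and 0.234% in the second, and CD106 made up 0.320% and 0.123%. Red pulp macrophage markers summed to 24.9 CPM in the T cell-like droplets with both antibodies and 30 CPM in those with neither, with 5 and 1 of the 14 markers at 0. Genes of the monocyte list summed to 457.3 and 446.0 CPM, with 2 of 12 at 0 in each. No droplets were taken out as doublets, and the part of doublets in these counts was not tested.

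The 80 B cell-like droplets with both antibodies held 1 Adgre1 UMI and 1 Vcam1 UMI, at a median depth of 2588 UMIs. All 157 lymphoid-like droplets with both antibodies (B cell-like, T cell-like, NK-like and plasma cell-like) held 1 Adgre1 UMI and 3 Vcam1 UMIs. Without lymphoid-like droplets, F4/80+ CD106+ against neither antibody gave 4.86 for Adgre1 and 8.65 for Vcam1, with edgeR adjusted p-values of 4.09e-24 and 8.20e-106.

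Without red pulp macrophage-like droplets, Vcam1 no longer passed in F4/80+ CD106+ droplets against neither antibody, at a log2 difference of 1.46 (edgeR adjusted p = 0.121). Adgre1 still passed, at 3.13 (edgeR adjusted p = 2.81e-06). Against F4/80+ CD106- droplets, Adgre1 was then at -1.22 and Vcam1 at 2.04, and neither passed, with edgeR adjusted p-values of 0.103 and 0.317. Against F4/80- CD106+ droplets, Vcam1 was then reversed at -1.19 (edgeR adjusted p = 0.610) and Adgre1 did not pass (edgeR adjusted p = 0.0634).

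Within the red pulp macrophage-like class the 2 antibodies ranked the droplets almost alike, with a Spearman rho of 0.932 over 103 droplets. Vcam1 UMIs correlated with CD106 at 0.631 and with F4/80 at 0.599, while Adgre1 UMIs correlated with F4/80 at 0.347 and with CD106 at 0.362. Neither transcript thus ranked these droplets clearly closer to its own antibody than to the other. The total antibody count correlated with F4/80 at 0.498 and with CD106 at 0.465, and all these ranks share the droplet's depth. As a share of the droplet's antibody total, the value for Vcam1 and CD106 was 0.745 and for Adgre1 and F4/80 it was 0.401. Adgre1 and Vcam1 UMIs correlated at 0.462.

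Monocyte-like droplets showed Adgre1 on both sides of the F4/80 limit. The 138 F4/80+ droplets of the class, 28 with and 110 without CD106, had 124.2 CPM (73.6 to 196.2) and 72.5 CPM (47.8 to 105.5), where 1 droplet held 55.6% of the 18 UMIs of the first group. The 32 with neither antibody had 47.0 CPM (15.2 to 109.6) from 5 UMIs, and the intervals overlapped. These 5 UMIs were in the 19 droplets with 20 to 32 F4/80 counts, just under the limit. The 7 droplets with 0 to 9 counts and the 6 with 10 to 19 held 0 UMIs, with intervals that reach 128.1 and 168.0 CPM. The libraries gave opposite orders, with 38.2 CPM in F4/80+ CD106+ and 103.4 CPM in F4/80+ CD106- droplets of Main1, and 172.7 and 48.1 CPM in those of Main2. F4/80+ against F4/80- monocyte-like droplets gave 77 genes of 3801 (2.03%), and 4 genes passed without the replicate block. Adgre1 was not among the 77, at a log2 difference of 0.92 (SE 0.70, edgeR adjusted p = 0.807). Vcam1 fell under the filter there. The 28 droplets with both antibodies held 2 Vcam1 UMIs, although red pulp macrophage markers summed to 3277 CPM in them, 292.6 CPM in F4/80+ CD106- and 338.2 CPM in monocyte-like droplets with neither. Of the 14 markers, 1, 3 and 8 were at 0 in these 3 groups, and the part of other cells in them was not tested.

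Conventional DC2-like droplets were F4/80+ in 74.0% and CD106+ in 5.77%. They held 30 Adgre1 UMIs and 3 Vcam1 UMIs, the latter at 11.5 CPM (2.37 to 33.6). The 71 F4/80+ CD106- droplets had 144.3 CPM of Adgre1 (95.1 to 210.0) and a UMI in 32.4% (21.8 to 44.5), at a median depth of 2679 UMIs. The 27 with neither antibody had 1 Adgre1 UMI, in 3.70% of droplets (0.0937 to 19.0), at a median depth of 1840 UMIs. The pooled binomial intervals did not overlap, but those of each library alone did, and so did the pooled CPM intervals, with 17.5 CPM (0.443 to 97.5) in the droplets with neither antibody. Rank correlation of Adgre1 UMIs with F4/80 counts over the 104 droplets was 0.435, and total UMIs correlated with F4/80 at 0.437. Genes of the monocyte list summed to 1342 CPM in the F4/80+ CD106- and 822.5 CPM in the double-negative droplets of this class, against 43550 CPM in F4/80+ CD106- monocyte-like droplets.

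In neutrophil-like droplets the Vcam1 interval lay above those of B cell-like and T cell-like droplets, on few counts, and overlapped those of conventional DC1-like and DC2-like droplets. In Main1 alone it rested on 2 UMIs (2.34 to 69.9 CPM) and overlapped B cell-like (1.61 to 4.93) and T cell-like droplets (0.641 to 6.03) too. All 6 droplets of the class with a Vcam1 UMI were CD106+. The 14 F4/80- CD106+ droplets held 9 UMIs (104.1 CPM, 47.6 to 197.6) and the 6 F4/80+ CD106+ droplets held 3 UMIs, at median depths of 5615 and 6236.5 UMIs. The 55 with neither antibody held 0 UMIs at a median depth of 2065, which allows up to 22.1 CPM at 3 UMIs. A single droplet held 6 of the 12 UMIs. Genes of the red pulp macrophage list summed to 69.4 CPM in the F4/80- CD106+ and 397.3 CPM in the double-negative neutrophil-like droplets, with 12 and 6 of 14 markers at 0. Of 8 stem or progenitor markers 6 were measured, and they summed to 5401 CPM in the F4/80- CD106+ and 478.3 CPM in the double-negative neutrophil-like droplets, with 2 and 4 of the 6 at 0. Elane and Prtn3 are on this list. Over the F4/80- CD106+ droplets of all classes, 1 droplet held 97.1% of the 239 Elane UMIs and 1 held 86.8% of the 129 Prtn3 UMIs. The first sum can therefore rest largely on few droplets. The part of these markers in the result was not tested.

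The genes most like each member over classes were sought among 10047 genes, as Pearson correlations of log2(CPM + 10) over 23 sums of a class and library. The 23 sums come from 2 libraries and are not independent. For Adgre1 these were Ms4a7 (0.957), Tgm2 (0.930), Clec4a1 (0.930), Spred1 (0.923), Tmem51 (0.921), Abcg3 (0.901), Tmem106a (0.876) and Acp2 (0.876). For Vcam1 these were Ccr3 (0.943), Clec4n (0.916), Mrc1 (0.916), Itgad (0.916), Spic (0.909), Hmox1 (0.905), Axl (0.904) and Slc40a1 (0.898). The 2 lists shared no gene. Adgre1 and Vcam1 correlated with each other at 0.642, which placed Vcam1 at rank 194 for Adgre1 and Adgre1 at rank 108 for Vcam1.

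Over single droplets the order differed. The 5 genes with the highest rank correlation with F4/80 counts were Ftl1 (0.342), Tmsb4x (0.325), Fth1 (0.311), Rps9 (0.307) and Fau (0.303), all abundant transcripts, and Adgre1 was at rank 200 with 0.177. For CD106 they were Ftl1 (0.244), Tmsb4x (0.223), Fth1 (0.215), B2m (0.213) and Itm2b (0.193), and Vcam1 was at rank 43 with 0.158. Total antibody counts correlated with F4/80 at 0.501 and with CD106 at 0.301. In counts this sparse these correlations only describe the droplets.

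Genes related to both members by family or partner were read in the same fits. The share of all tested genes that passed was 19.7% in F4/80+ CD106+ against neither antibody, 4.65% in F4/80+ CD106+ against F4/80+ CD106-, and 1520 of 8649 genes in the first without lymphoid-like droplets. Lists of this size are only described by their counts. Of 12 adhesion G protein-coupled receptor genes, 7 were tested, and in F4/80+ CD106+ droplets against neither antibody 5 rose and 0 fell, Adgre1 included. Adgre4, a close relative of Adgre1, had 34.4 CPM in F4/80+ CD106+ droplets and 1.37 CPM in droplets with neither (log2 4.57, edgeR adjusted p = 4.69e-18). Adgre5, which encodes CD97, had 149.2 and 77.4 CPM (log2 0.93, edgeR adjusted p = 4.36e-09). In F4/80+ CD106+ against F4/80+ CD106- droplets none of the 7 passed, where 4.65% of all genes did. Without lymphoid-like droplets 4 were tested there, of which 0 rose and 1 fell, where 327 of 8649 genes passed.

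Of 6 genes for integrins that bind VCAM-1, 5 were tested and all 5 rose in F4/80+ CD106+ droplets against neither antibody. Itgad, the alpha D chain, had 34.4 and 0.275 CPM (log2 6.69, edgeR adjusted p = 8.17e-19). Itgb2, the common beta chain of leukocyte integrins, was higher by 0.87 (edgeR adjusted p = 5.45e-08), and Itgb1, the beta chain of VLA-4, by 0.84 (edgeR adjusted p = 1.60e-06). Without lymphoid-like droplets 2 of the 5 rose and 0 fell. Itgad was also the 1 member of this list that rose in F4/80+ CD106+ against F4/80+ CD106- droplets, and 0 fell. Without lymphoid-like droplets 1 of the 5 rose and 1 fell there, where 327 of 8649 genes passed.

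Of 13 adhesion genes of the immunoglobulin superfamily, 8 were tested. Against neither antibody, Vcam1 and F11r rose in F4/80+ CD106+ droplets, and Icam2 (log2 -0.93, edgeR adjusted p = 7.33e-05) and Pecam1 (log2 -0.48, edgeR adjusted p = 0.0157) fell. Without lymphoid-like droplets 7 were tested in that comparison, of which 1 rose and 1 fell. Against F4/80+ CD106- droplets, Vcam1 was the 1 gene of the 8 that rose, and 0 fell. The medians of this list were -0.35 and -0.04 on the log2 scale in these 2 comparisons, against -0.03 and 0.00 over all genes tested.

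Of 12 genes of the NF-kB and cytokine pathways known to act on Vcam1, all were tested. In F4/80+ CD106+ droplets against neither antibody 4 rose and 3 fell. Tnfrsf1a, a receptor of tumour necrosis factor, was higher by 2.0 (edgeR adjusted p = 4.17e-08), Tnfrsf1b, the other receptor, by 1.47 (edgeR adjusted p = 9.22e-05) and Irf1 by 0.62 (edgeR adjusted p = 0.00300). Without lymphoid-like droplets 5 rose and 0 fell. In F4/80+ CD106+ against F4/80+ CD106- droplets 0 rose and 4 fell, which were Rel, Relb, Nfkbia and Tnfrsf1a. Without lymphoid-like droplets 0 rose and 1 fell there, where 327 of 8649 genes passed.

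Lists of red pulp macrophage genes were read in the same comparison. Of 11 transcription factors, 6 rose and 2 fell against neither antibody. Spic, the factor known to be needed for red pulp macrophages, had 114.1 and 10.2 CPM (log2 3.46, edgeR adjusted p = 1.50e-29) and Maf rose by 2.35 (edgeR adjusted p = 5.58e-20). Irf8 and Id3 fell, while without lymphoid-like droplets 6 of the 11 rose and 0 fell. Of 12 iron recycling genes 9 rose and 1 fell. Hmox1, the enzyme that breaks down haem, rose by 6.39 (edgeR adjusted p = 7.95e-64), Slc40a1, the iron exporter ferroportin, by 5.13 (edgeR adjusted p = 2.44e-53) and Trf by 3.48 (edgeR adjusted p = 2.00e-40). All 13 tested genes of 15 phagocytic and complement genes rose, led by C1qa at 6.56 (edgeR adjusted p = 1.19e-67), C1qb at 6.75 and C1qc at 6.26.

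Of 8 genes of colony-stimulating factors, their receptors and chemokine receptors, 7 were tested and 7 rose, with Csf1r, the receptor of the macrophage growth factor CSF-1, at 5.03 (edgeR adjusted p = 1.38e-40), Ccr2 at 1.49 and Csf2ra at 1.85. Of 11 lysosomal genes 7 rose, with Lyz2 at 2.82, Ctsb at 2.29 and Cd68 at 2.99 (edgeR adjusted p = 4.55e-27). In that comparison the median log2 difference was 1.94 over the adhesion G protein-coupled receptor list, 0.84 over the integrin list, 0.76 over the transcription factors, 0.04 over the NF-kB list, 2.37 over the iron genes, 5.51 over the phagocytic genes, 1.85 over the receptor list and 1.28 over the lysosomal genes, against -0.03 over all genes tested.

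F4/80+ CD106+ against F4/80+ CD106- droplets divided these lists. Of the phagocytic and complement genes 7 rose, among them C1qa, Axl, Mertk, Cd5l and Timd4, and Fcer1g and Tyrobp fell. Without lymphoid-like droplets 7 rose and 0 fell. Of the iron genes Hmox1, Slc40a1, Ftl1, Cd163 and Slc48a1 rose and 0 fell. Of the transcription factors 4 rose, among them Spic, Maf and Nr1h3, and Spi1 fell. Csf1r rose, while Csf2ra, Cx3cr1 and Ccr2, of which Ccr2 and Cx3cr1 mark monocytes, fell. Genes of the monocyte list summed to 3722 CPM in F4/80+ CD106+ droplets and 11540 CPM in F4/80+ CD106- droplets, and those of the red pulp macrophage list to 2412 and 111.4 CPM.

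The genes named next were among those with the largest differences and had the same sign in both libraries. Against neither antibody, the genes higher in F4/80+ CD106+ droplets included Mertk, a receptor for the uptake of dying cells (at least 133-fold higher, with 0 UMIs in droplets with neither), Igf1, Fcna and Vcam1. At the other end, Shisa8, Slc38a5, Gfi1b, 1810046K07Rik and Slc43a3 had 0 UMIs in F4/80+ CD106+ droplets. F4/80+ CD106- droplets led with Ppp1r14a, Plcb1, Mmp12, Sirpb1b and Colec12, while Ly6g, Ces2g, Slc38a5 and Igkv14-126 had 0 UMIs. F4/80- CD106+ droplets led with Elane, Fcnb, Ms4a3, Prtn3 and Cldn15, of which 1 droplet held 97.1% of the Elane UMIs and 86.8% of the Prtn3 UMIs. Car1, Siglech, Klf1, Rhd and Igkv4-70 had 0 UMIs there.

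Between the 2 F4/80+ gates, Mertk, Timd4, Kcnj10, Paqr9 and Rab3il1 had 0 UMIs without CD106, and Mertk was at least 13.7-fold higher with it. H2-M2 and Ticam2 had 0 UMIs with CD106, and Bex6, Ccdc112 and Mmp12 were lower. Axl, Fn1, Clec4n, Cd302 and Sdc3 had 0 UMIs in F4/80- CD106+ droplets and were higher in F4/80+ CD106+ droplets (57.7% of the Fn1 UMIs were in 1 droplet), where Igkv5-43, Slc43a3, Igkv4-68, BC100530 and Klrb1c were lower. In the F4/80- CD106+ gate 1 droplet held 92.0% of the Igkv4-68 UMIs and 56.0% of the Igkv5-43 UMIs. Clec4a3, Tgfbi, Fn1, Il1b and H2-M2 led F4/80+ CD106- against F4/80- CD106+ droplets, and Ly6g, Orm1, Ncam1, Gm6594 and Cldn15 had 0 UMIs in the F4/80+ CD106- droplets.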

How the data were processed

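The deposited counts were whole UMIs per gene and droplet and whole tag counts per antibody and droplet, with no normalization by the authors. Per the submitters' processing notes, bcl2fastq, Cell Ranger 3.0.2 and mm10 were used; the tool that counted antibody tags was not stated. Prefixes m1 and m2 of droplet names were read as Main1 and Main2. Of 11713 identifiers 11682 matched a GENCODE vM21 symbol. Genes seen in under 15 droplets were not in the tables, and no droplets were filtered out.

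Gates came from log1p of antibody counts over their geometric mean, with 2 Gaussian components and a posterior above 0.5 (scikit-learn 1.9.0). Leiden clustering (scanpy 1.11.5, igraph 0.11.9) used 1925 variable genes, 30 components, 15 neighbours and resolution 1, giving 22 clusters. No doublet caller was run. Sums per gate and library were tested with edgeR 4.0.16 (R 4.3.3), with 3 residual degrees of freedom, TMM scaling and a filter of 20 UMIs. The spread of each gene was moderated over all genes with a prior of 108.3 degrees of freedom, so small p-values rest largely on that shared spread. DESeq2 1.42.0 was an alternative. Both libraries gave every gate, so the library block pairs the sums by construction. The fit was also run on simulated counts that held no library effect and no cell classes. Its outcome is not reported here, and no result rests on it.

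The members, lists and tests were chosen with earlier results of these data known. Named genes were both members, the 3 genes of each list with the lowest p in F4/80+ CD106+ against neither antibody, the 8 genes most like each member, the 5 highest and 5 lowest called genes of each comparison with 1 sign in both libraries, and the 5 genes ranked highest with each antibody. Other list genes are named where a count is small, chosen after their values were seen. Some genes that this rule names are not reported here.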

Additional observations from a re-analysis of the deposited data

Results flagged for a closer look

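The Vcam1 difference between F4/80+ and F4/80- droplets was larger among CD106+ than among CD106- droplets. Among CD106+ droplets, F4/80+ against F4/80- gave a log2 difference of 4.17 in Vcam1, and among CD106- droplets it gave -0.61. The interaction term of the same fit was 4.78 (SE 0.74, 95% interval 3.31 to 6.24, edgeR adjusted p = 5.83e-07), and 245 of 11383 genes passed it (2.15%). This test was added after the data had been seen. It rests on 531 Vcam1 UMIs in F4/80+ CD106+, 3 in F4/80+ CD106-, 9 in F4/80- CD106+ and 43 in droplets with neither antibody. The F4/80+ CD106+ gate held 99 of the 103 red pulp macrophage-like droplets. Without these droplets the 2 differences were -1.19 (edgeR adjusted p = 0.610) and -0.58 (edgeR adjusted p = 0.768). The order was reversed with the gate at the 99th percentile of T cell-like droplets. There the differences were 4.11 among CD106+ and 7.46 among CD106- droplets, and the interaction was not tested. The F4/80+ CD106- droplets of that gate had a median of 146.5 CD106 counts, and its F4/80- CD106+ gate held 8 droplets. CD106 is the product of Vcam1, so gates on CD106 are not independent of the gene tested.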

How the results depend on the processing

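Gate comparisons are given in the order F4/80+ CD106+, F4/80+ CD106- and F4/80- CD106+ against neither antibody, F4/80+ CD106+ against F4/80+ CD106-, and F4/80+ CD106+ and F4/80+ CD106- against F4/80- CD106+. Counts of genes past the threshold depended on the setting. The library block pairs sums of the same library, and without it they were 1445, 1013, 360, 251, 190 and 339, and 4 within monocyte-like droplets. DESeq2 gave 977, 780, 389, 202, 188 and 321. A gate above the 99th percentile of T cell-like droplets gave 438, 284, 253, 39, 171 and 177. A log-ratio gate within droplets gave 1463 in the first and 1121, 348, 818 and 1135 in the last 4. Droplets under 4000 UMIs gave 988 in the first and 122 in the third, and leaving out droplets positive for CD3, B220 or CD79b gave 819 in the first and 200 in the fourth. Without lymphoid-like droplets, F4/80+ CD106+ against F4/80+ CD106- and against F4/80- CD106+ had 327 and 686. Lymphoid-like droplets alone, added after the data had been seen, gave 715, 404, 222, 140 and 104 in the last 5. Each library alone allows no test and gives no count.

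For F4/80+ CD106+ against neither antibody, each library alone gave 3.86 to 5.34 for Adgre1 and 6.39 to 7.11 for Vcam1. Lymphoid-like droplets alone gave -0.65 for Adgre1 (SE 1.795, edgeR adjusted p = 0.870) and -0.15 for Vcam1 (SE 1.054, edgeR adjusted p = 0.955). Their F4/80+ CD106+ gate held 1 Adgre1 UMI and 3 Vcam1 UMIs, so no direction is read from these. B cell-like droplets were the most numerous of them, but in that gate T cell-like droplets held more UMIs. In F4/80+ CD106- against neither, lymphoid-like droplets alone gave Adgre1 1.17 with no call. Without red pulp macrophage-like droplets Vcam1 was 1.46 in F4/80+ CD106+ against neither and did not pass. Vcam1 in F4/80+ CD106- against neither antibody turned positive under the within-droplet gate (1.06), the T cell-like percentile gate (7.46, which passed on 202 UMIs), the gate on differences of logs added later (0.31) and without lymphoid-like droplets (0.33). Vcam1 in F4/80- CD106+ against neither antibody was 1.43 to 3.28 in each library alone, 2.62 without the replicate block and 1.56 under 4000 UMIs, and the last 2 did not pass. Adgre1 between the F4/80+ gates was -0.36 to 0.84 in each library alone, -1.22 without red pulp macrophage-like droplets and -1.82 in lymphoid-like droplets alone. There Vcam1 was 6.68 to 8.19 in each library alone, and 1.07, 2.04 and 1.29 with no call under the percentile gate, without red pulp macrophage-like droplets and in lymphoid-like droplets alone. Against F4/80- CD106+ droplets, Vcam1 in F4/80+ CD106+ droplets was 3.11 to 5.68 in each library alone and -1.19 without red pulp macrophage-like droplets, where the adjusted p of Adgre1 was 0.0634. In lymphoid-like droplets alone the adjusted p of Adgre1 in these gates was 0.906 and 0.860, and Vcam1 had 0 UMIs in F4/80- CD106+ droplets, so no fold is given. Vcam1 in F4/80+ CD106- droplets there was -1.62 with the within-droplet gate, -3.23 without the replicate block, -1.63 under 4000 UMIs and -3.33 in DESeq2, with no call, and 3.04 with the percentile gate, which passed. The percentile gate held 46 F4/80+ CD106+ droplets, and its F4/80+ CD106- droplets had a median of 146.5 CD106 counts. The causes were not tested.

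The share of F4/80+ CD106+ droplets with Adgre1 was 4.09%, 7.23% and 8.71% thinned to 500, 1000 and 1500 UMIs, 21.2% with the within-droplet gate and 41.3% with the percentile gate. For Vcam1 it was 16% and 19.3% thinned to 500 and 1500, and 36.9%, 71.7% and 31.5% with the within-droplet, percentile and log-difference gates. Red pulp macrophage-like droplets were 19.5% of that gate with 4000 variable genes, and 45.6%, 80.4% and 37.4% with these 3 gates. Monocyte-like droplets were 38.1%, 13.3% and 38.1% of F4/80+ CD106- droplets with them. Adgre1 shares at 500, 1000 and 1500 UMIs were 2.25%, 5.62% and 7.64% in F4/80+ CD106- droplets and 0.0794%, 0.190% and 0.188% with neither antibody, and 23.3% and 1.26% in these with the percentile gate. Vcam1 shares at 500 and 1000 UMIs were 0.813% and 0.813% in F4/80- CD106+ droplets and 0.254% and 0.317% with neither, and 0% in F4/80+ CD106- droplets at 1000. With the percentile gate they were 53.3% in F4/80+ CD106-, at a median of 146.5 CD106 counts, 37.5% in F4/80- CD106+ and 0.916% with neither.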
